A study of Canis lupus familiaris with 62 samples.

Results

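Chromosome 17 of the dog carries 968 of the 30951 genes counted in 62 canine meningiomas, and 806 of them are described here. They are the genes with more than 1 annotated exon row and a span from first to last exon base under 500 kb. The rule left out 158 single-exon genes and 4 longer genes. At least 1 read was counted for 739 of the 806 members, 535 passed the filter on low counts, and 358 had a mean log2 CPM of at least 2. Log2 CPM is the log2 of counts scaled to a common library size, so 1 unit is a 2-fold difference, and a value of -1.16 stands for a count of 0. The members lay between bases 20996 and 64239707 of CanFam3.1. The file names genes by Ensembl identifier only, and no identifier could be paired with a symbol, so the function of single members is not given.

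Meningiomas are tumours of the membranes that cover the brain and spinal cord, and they are among the most common brain tumours of dogs. Gain or loss of whole chromosomes or arms is frequent in human meningioma. The genes of a stretch that is gained or lost often shift their RNA levels together, while single genes can be held apart by their own regulation. Dog chromosome 17 holds stretches that correspond to parts of the short arms of human chromosomes 1 and 2, and loss of the human 1 short arm is a known event in human meningioma.

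Each library came from 1 tumour kept as formalin-fixed, paraffin-embedded tissue that had been archived and was obtained at surgery or post mortem. By the treatment label, 27 dogs were untreated, 7 received a steroid (6 of these carry the label steroid/anti-epileptic), 3 only an anti-epileptic drug, 3 radiotherapy alone (RT), 13 surgery alone (Sx) and 9 surgery with radiotherapy (SxRT). Sx and RT were read as surgery and radiotherapy, and no label gives the order of sampling and treatment. There were 30 neutered and 1 intact female dogs, and 25 neutered and 6 intact males. Libraries held 1967061 to 12063982 counts. Replicates were numbered in accession order, so the same number in 2 groups pairs nothing. No marker of meningioma or of another cell type could be checked without symbols, and in bulk tissue fewer cells of a type and less RNA per cell cannot be told apart.

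The level of chromosome 17 in a tumour was summarised as a score. It is the mean over the 358 better expressed members of the log2 CPM less the gene's own mean, minus the library's median of the same value over 38 autosomes. The score ran from -0.51 in SxRT replicate 9 to 0.42 in untreated replicate 13. The 16 lowest libraries lay at or below -0.31 and the other 46 at or above -0.16, with no library between. Those 16 were 9 untreated, 3 Sx, 3 SxRT and 1 anti-epileptic tumour, and no steroid or RT tumour was among them. In each of them between 254 and 301 of the 358 members lay below their own mean, against 72 to 209 members in the other 46. The score is made of these same members, so a higher count in the lowest libraries was largely set by their choice. The widest shift was 301 of 358 members (84.1%) in anti-epileptic replicate 3.

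**Figure D1:**
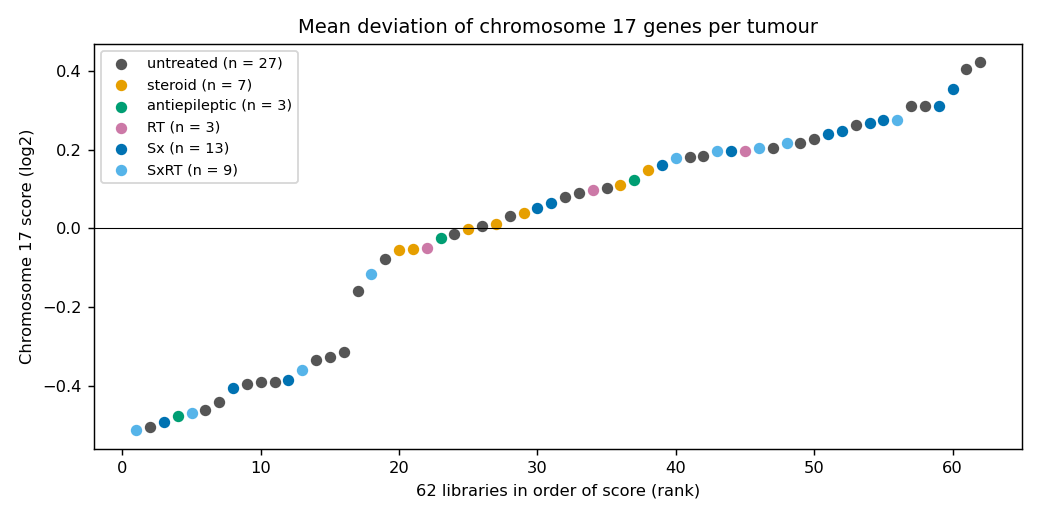
Chromosome 17 score (log2) of each of the 62 libraries, in order of score and coloured by treatment label. The 16 lowest libraries lie at or below -0.31, and the next lies at -0.16.

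All treatment groups overlapped in the score. Untreated tumours had a lowest score of -0.51, a median of 0.03 and a highest of 0.42. Sx tumours ran from -0.49 through a median of 0.20 to 0.35, and SxRT tumours from -0.51 through 0.18 to 0.28. The 7 steroid tumours stayed between -0.06 and 0.15 with a median of 0.01. The 3 RT tumours had scores of -0.05, 0.10 and 0.20, and the 3 anti-epileptic tumours -0.48, -0.03 and 0.12. Library depth overlapped between the 16 lowest libraries (2645740 to 9997451 counts) and the rest (1967061 to 12063982). The share of mitochondrial counts overlapped too, at 6.75% to 19.4% against 3.00% to 46.7%. The files hold no measure of chromosome copy number, so its part in the score was not tested.

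In edgeR, members' slopes on the rest of the chromosome centred on 1, and 30.8% of those tested passed the test. Each member was regressed on a score that left out every gene of its own 10 Mb block, so that neither the gene nor its near neighbours stood on both sides. A slope of 1 means that the gene moved by as much as the mean of the other blocks. Of the 535 members tested, 480 (89.7%) had a positive slope, the median slope was 1.00 and the quartiles were 0.65 and 1.37. edgeR's quasi-likelihood test with Benjamini-Hochberg adjustment over 18370 genes called 165 members as following (30.8%) and none with a negative slope; 300 had an unadjusted p under 0.05. Of 17795 genes on other chromosomes, 0.545% were called with a positive and 0.275% with a negative slope on the chromosome 17 score, 52.3% had a positive slope and their median slope was 0.03. An unadjusted p under 0.05 was found for 1535 of the 17795.

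**Figure D2:**
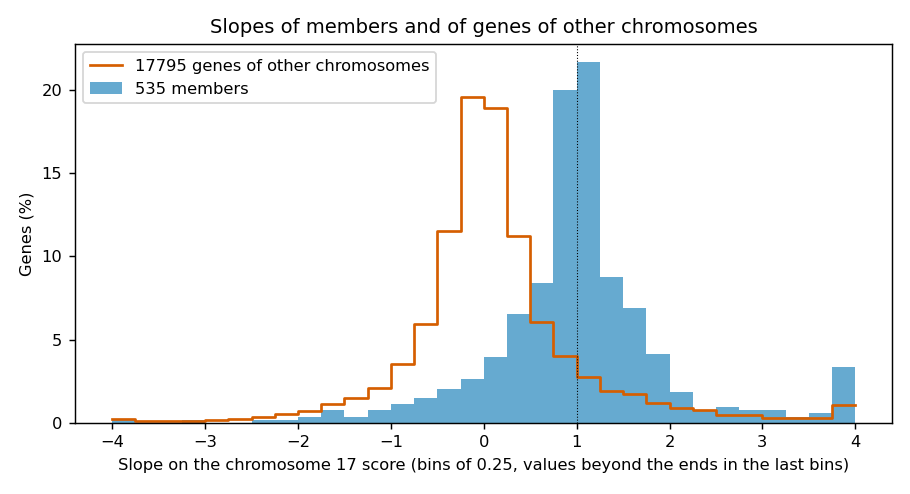
Share of genes (%) by slope on the chromosome 17 score, in bins of 0.25, for 535 members (bars) and 17795 genes of other chromosomes (line). The members centre on their median of 1.00 and the other genes on 0.03.

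The 95% interval of the slope held 1 for 469 of the 535 members. It lay wholly above 1 for 28 and wholly below 1 for 38. Of 17795 genes on other chromosomes, it held 1 for 8575, lay above 1 for 200 and below 1 for 9020. A wide interval can hold both 0 and 1. The interval lay wholly above 0 for 311 members and for 1106 genes on other chromosomes. Among members of at least log2 CPM 2, 155 of 358 (43.3%) were called and the median slope was 1.01. Among the 177 less expressed members 10 were called, with the same median of 1.00 and wider quartiles (0.27 and 1.90). The spread of slopes was smallest where the slope was measured best. Of the 107 members with a standard error of at most 0.25, a limit chosen after the values were seen, every one had a positive slope and 94 were called. Their slopes ran from 0.43 (ENSCAFG00000007383) to 1.45 (ENSCAFG00000004881). Of 2689 genes on other chromosomes measured as well, none was called as following and 5 were called with a negative slope.

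Following was seen along the whole chromosome. In the first 10 Mb block 10 of 54 tested members were called, then 15 of 48, 32 of 89, 31 of 112, 18 of 57, 36 of 109 and 23 of 66 in the blocks after it. The median slopes in the same order were 0.99, 0.96, 1.01, 1.04, 1.19, 1.03 and 0.88. No block lacked members that followed.

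**Figure D3:**
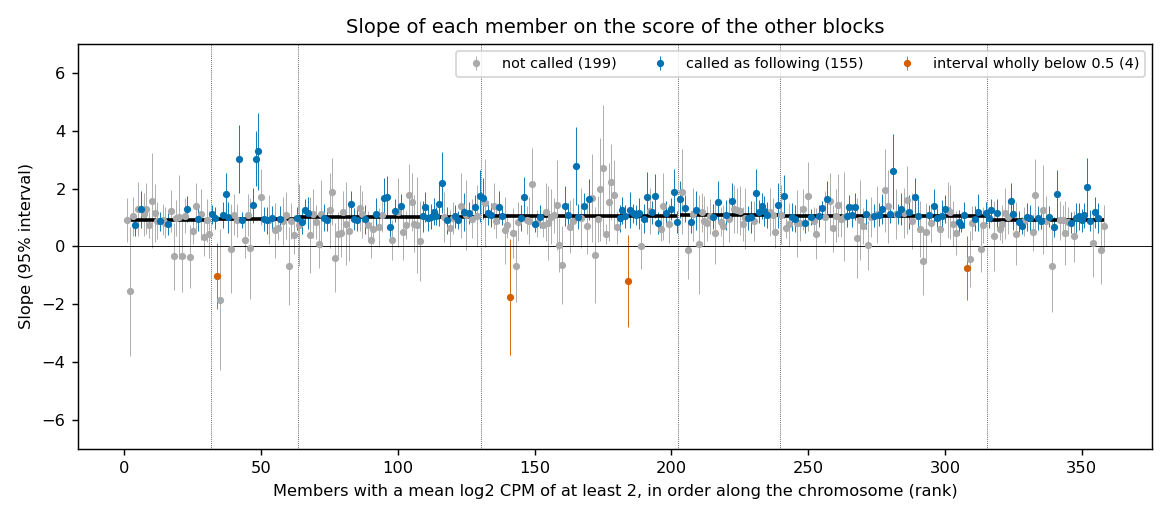
Slope with its 95% interval for the 358 members of at least log2 CPM 2, in order along the chromosome, with the median of each 10 Mb block as a black line. Block medians lie near 1 throughout, and the 4 members with an interval wholly below 0.5 lie in 3 blocks among called neighbours.

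The firmest follower was ENSCAFG00000009618, on the minus strand at chr17:52420048-52458329. Its log2 CPM ran from 7.85 through a median of 8.57 to 9.43 in untreated tumours, from 7.75 through 8.72 to 9.15 in Sx and from 7.61 through 8.48 to 8.86 in SxRT. Steroid tumours ran from 7.66 through 8.43 to 8.90. The 3 anti-epileptic tumours had 8.45, 8.81 and 7.88, and the 3 RT tumours 9.09, 8.57 and 8.70. The groups overlapped, and the gene was on the same side of its mean as the score in 51 of 62 libraries. Its slope was 1.33 (SE 0.13, edgeR quasi-likelihood adjusted p = 1.51e-09), and the interval of 1.07 to 1.58 lay above 1.

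In each other block the member with the largest slope over its error was also called. In the first block it was ENSCAFG00000003435 (chr17:7490916-7574331), with a slope of 1.29 (SE 0.24), log2 CPM between 3.70 (untreated replicate 8) and 6.53 (untreated replicate 7). In the block from 10 Mb it was ENSCAFG00000003657 (chr17:11091543-11430839), with 1.11 (SE 0.17) and a range of 5.72 to 7.60. The block from 20 Mb was led by ENSCAFG00000005253, with 1.40 (SE 0.21). ENSCAFG00000007564 (chr17:38927531-38967004) led the block from 30 Mb with 1.15 (SE 0.17), and its 62 values stayed between 5.58 and 7.22. ENSCAFG00000008797 (chr17:49245496-49278767) led the block from 40 Mb with 1.40 (SE 0.22). It was at 2.73 in Sx replicate 12, far under its median of 5.48. The last block was led by ENSCAFG00000012719 (chr17:60465230-60511934), with a slope of 0.89 (SE 0.14) and values from 6.75 to 8.37. For all of these but ENSCAFG00000009618 the interval held 1.

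Among the better expressed members, 14 had an interval wholly above 1, with a median slope of 1.97. Of 11593 genes on other chromosomes at that level of expression, 64 had such an interval. Of the 14 members, 3 that were singled out after the values were seen lay between bases 15222094 and 16002613. They were ENSCAFG00000003833 (slope 3.02, SE 0.60), ENSCAFG00000003887 (3.03, SE 0.48) and ENSCAFG00000030832 (3.29, SE 0.68). All 3 were called, with edgeR adjusted p-values of 0.00289, 7.11e-05 and 0.0195. In limma-trend the slope of ENSCAFG00000030832 was 2.44 and was not called (adjusted p = 0.103), while the other two were. None of the 3 shares exon bases with another gene of the file.

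At the other end, 5 members had an interval lying wholly between 0 and 1. The intervals were not adjusted for the number of members, and genes on other chromosomes with such an interval were not counted. The 5 members were ENSCAFG00000003477 (slope 0.55), ENSCAFG00000007383 (0.43), ENSCAFG00000009067 (0.63), ENSCAFG00000012349 (0.61) and ENSCAFG00000012554 (0.71), named after the values were seen. Only ENSCAFG00000012554 was called by edgeR (SE 0.15, adjusted p = 0.00218), and its interval reached 0.999. The edgeR adjusted p-values of the others were 0.318, 0.277, 0.0521 and 0.129 in the order named.

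Few members escaped in edgeR. A member was said to escape where its interval lay wholly below 0.5, which held for 8 of the 535 members; 25.0% of genes on other chromosomes met the same limit. The count was 18 in limma-trend, 3 with the score not centred on the library median and 63 in limma-trend over the 46 libraries above the gap in the score. For these settings the share of genes on other chromosomes was not counted, so the counts have no background. Of the 8, 4 had a mean log2 CPM of at least 2. The most highly expressed was ENSCAFG00000012022 at chr17:59696477-59701744, with a mean log2 CPM of 7.06 and 109 RPKM (reads per kilobase of exon, scaled to library size). Its log2 CPM ran from 4.47 through 7.16 to 8.96 in untreated, from 5.97 through 7.28 to 9.02 in Sx, from 6.50 through 7.57 to 9.34 in SxRT and from 4.84 through 6.25 to 8.57 in steroid tumours. The 3 anti-epileptic tumours had 5.22, 4.27 and 9.26, and the 3 RT tumours 7.12, 6.24 and 5.62. Its highest value was in SxRT replicate 9, the library with the lowest chromosome score. The gene was on the same side of its mean as the score in 29 of 62 libraries, and its slope was -0.74 (SE 0.56, edgeR adjusted p = 0.808).

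ENSCAFG00000003717 (chr17:12211494-12270152) had a slope of -1.02 (SE 0.58). Its median log2 CPM was 4.64 in untreated, 5.19 in steroid, 3.65 in Sx and 3.04 in SxRT tumours, and RT replicate 1 had no count. ENSCAFG00000006467 (chr17:31633467-31683786) had a slope of -1.74 (SE 1.02) and ran from no count in Sx replicate 6 to 6.98 in untreated replicate 2. ENSCAFG00000007549 (chr17:38807014-38906196), outside the naming rule, had a slope of -1.21 (SE 0.81). No negative slope was called, so these members were not shown to move against the chromosome. With surgery against no treatment, edgeR called ENSCAFG00000003717 (log2 difference -1.14, adjusted p = 0.0197), ENSCAFG00000006467 (-1.79, 0.0465) and ENSCAFG00000007549 (-2.04, 0.00344) lower. ENSCAFG00000012022 was not called there (0.29, edgeR adjusted p = 0.602). Over all genes 10.4% were called lower with surgery. The other 4 escaping members, ENSCAFG00000033149, ENSCAFG00000035659, ENSCAFG00000012840 and ENSCAFG00000023173, had a mean log2 CPM of 1.43 or less.

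**Figure D4:**
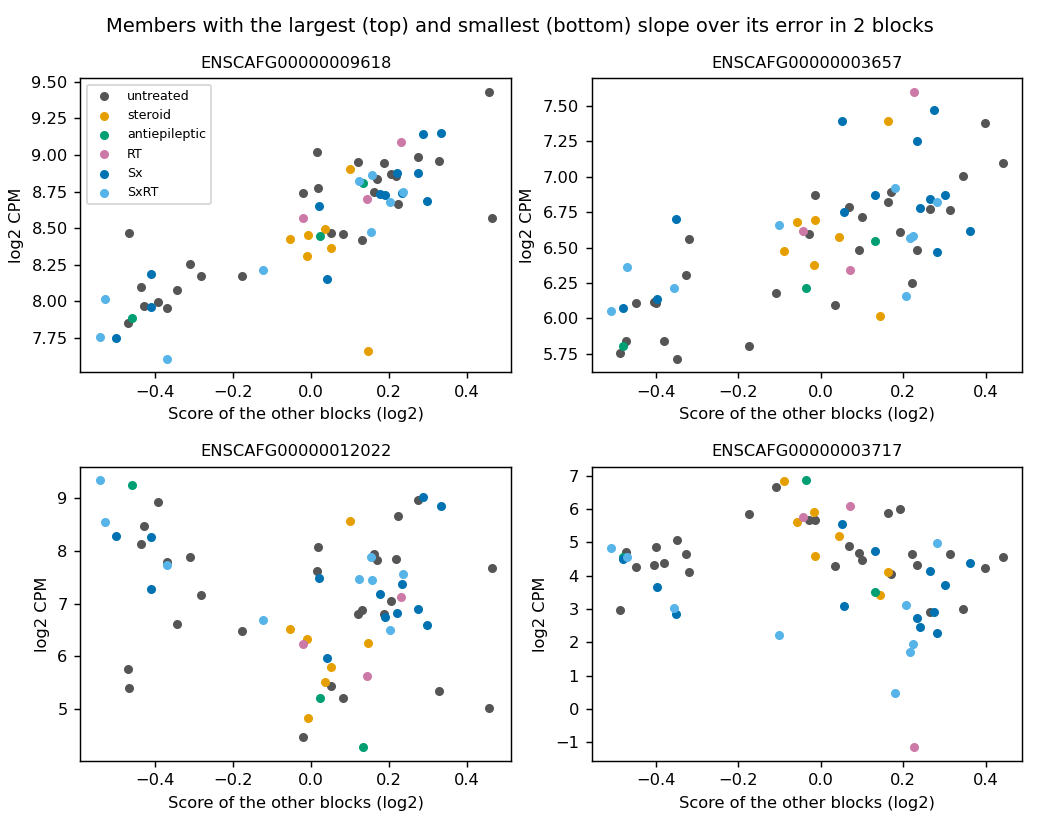
Log2 CPM in each of 62 libraries against the score of the other blocks (log2), coloured by treatment label, for 2 followers (top) and 2 escaping members (bottom). ENSCAFG00000009618 and ENSCAFG00000003657 rise with the score (slopes 1.33 and 1.11), while ENSCAFG00000012022 and ENSCAFG00000003717 have slopes of -0.74 and -1.02 with intervals wholly below 0.5.

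In the remaining blocks the smallest slope over its error belonged to members whose intervals reached above 0.5. ENSCAFG00000003240 had -1.56 (SE 1.14), ENSCAFG00000004676 -0.39 (SE 0.61), ENSCAFG00000008109 -0.12 (SE 0.51) and ENSCAFG00000012794 -0.68 (SE 0.81). ENSCAFG00000004676 shares exon bases with a gene on the opposite strand, and reads of the pair cannot be told apart because strand was not used in counting. The largest spread left after the slope was taken out belonged to ENSCAFG00000049453 (SD 2.48) and ENSCAFG00000003240 (SD 2.36). Both had no count in some libraries and reached a log2 CPM of 7.59 in steroid replicate 3 and 8.05 in steroid replicate 5, respectively.

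The members with the highest mean RPKM followed the chromosome. ENSCAFG00000007875 (chr17:40048828-40049470) had a mean of 506 RPKM, a log2 CPM between 4.99 and 9.27 and a slope of 1.63 (SE 0.33, edgeR adjusted p = 0.00166). ENSCAFG00000003263 (chr17:2138779-2143178) had a mean of 430 RPKM, values from 6.97 to 10.78 and a slope of 1.28 (SE 0.33, adjusted p = 0.0203).

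More members were called where expression was higher, while the median slope stayed near 1. With members in 3 bins of equal size by mean log2 CPM, 10 of 179, 41 of 178 and 114 of 178 were called, with median slopes of 1.00, 1.06 and 0.98. In such bins by exon length the calls were 42, 50 and 73, and by span 31, 65 and 69. Of 55 tested members that share exon bases with another gene 14 were called, and of 480 that share none 151, with medians of 1.00 and 1.01. Outside the rule, 2 of 36 tested single-exon genes of the chromosome were called and none of 4 longer genes. At the span limit, the largest member was ENSCAFG00000005205 (398642 bases, slope 0.69) and the smallest gene left out was ENSCAFG00000008981 (618061 bases, slope 0.70).

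Genes of other autosomes followed their own chromosomes too. For this, limma-trend regressed every autosomal gene on the score of its own chromosome, and p-values were adjusted over those tests together. Chromosome 17 then had the highest share of genes called, 200 of 535 (37.4%). The same fit called 136 of its members when p-values were adjusted over all genes on the chromosome 17 score. The other autosomes ran from 1.71% to 23.8% with a median of 9.90%. The difference between chromosomes was not tested.

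How many members were called depended on which libraries were used, while the median slope stayed positive. Sample names carry a number from 11 to 22 and begin with N or S, which the labels do not explain. Limma-trend called 136 members over all libraries, with a median slope of 0.88. It called 3 within names numbered 11 to 16 (median slope 0.79) and 14 within 17 to 22 (0.94). Within N names 15 were called (0.79), within S names 19 (0.92) and within untreated tumours 5 (0.81). Of genes on other chromosomes, 0.185% were called as following over all libraries, 0% within names 11 to 16, 0.0731% within 17 to 22, 0.00562% within N names, 0.0112% within S names and 0% within untreated tumours. In the 46 libraries above the gap in the score 66 members were called as following, 18 were called with a negative slope and the median was 0.72. There 3.35% of 17795 genes on other chromosomes were called as following, and 1083 were called with a negative slope. In the 16 libraries below the gap, fitted without treatment group, sex and neuter status, none was called and the median was 0.69. Slopes were positive for 322 of 535 members below the gap and 371 above it, against 465 in limma-trend over all libraries.

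Along the chromosome, the low libraries were low throughout. In each of the 16 lowest libraries all 7 blocks had a mean deviation below 0, and no other library had that. The block means come from the same members as the score that ranked the libraries, so this was in part set by the ranking. In 10 libraries no block was below 0. The sign of a block was that of the rest of the chromosome in 40, 48, 53, 56, 51, 52 and 55 of 62 libraries from the first block to the last. The distance between the lowest and the highest block of a library ran from 0.18 to 0.92 with a median of 0.44.

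**Figure D5:**
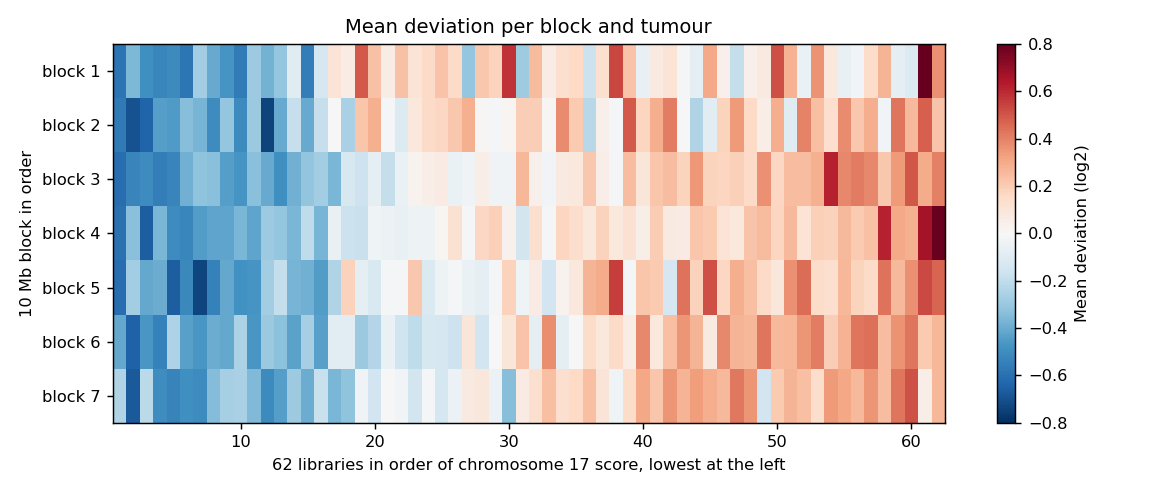
Mean deviation (log2) of the members in each 10 Mb block (rows, in order) for 62 libraries (columns, lowest score at the left). The 16 columns at the left are below 0 in all 7 rows; block 1, the first 10 Mb, departs from the other rows most often.

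The library with the widest distance was Sx replicate 6, with a mean deviation of 0.58 in the first block and -0.34 in the last. Untreated replicate 10 had 0.49 in the first block and 0.22 in the second, and between -0.30 and -0.03 in the other 5. Untreated replicate 7 fell from 0.79 in the first block to 0.05 in the last with every block above 0. Steroid replicate 5 was high in the first block (0.53) and in the fifth (0.55) and between -0.03 and 0.16 in the others; it was the deepest library, and 46.7% of its counts were mitochondrial.

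In each library every split of the 358 members in order that left at least 40 genes on either side was tried. The split whose difference of mean deviations was largest over its standard error was kept. It was called a step where the mean deviations differed by at least 0.5 and by at least 4 standard errors over genes. The odd-ranked and even-ranked genes each had to differ by at least 0.25 in the same direction. Only 1 of 62 libraries met this, a share of 1.61%, against 4.67% of 1178 pairs of a library and another autosome with many such genes. It was Sx replicate 3, whose mean was -0.23 over 71 members up to ENSCAFG00000004627, which ends at base 21026845, and 0.30 over the 287 after it. The difference was 0.53, or 4.05 standard errors, the largest ratio of the splits tried in that library.

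Several libraries came near the limits. Untreated replicate 10 was split at the same place in the opposite direction, from 0.46 to -0.21, a difference of -0.68 at 3.11 standard errors. Untreated replicate 3 rose by 0.38 after base 51781063, at 5.45 standard errors. SxRT replicate 9 and Sx replicate 7, both among the lowest libraries, were less low near the end: the first went from -0.59 to -0.17 after base 58764881, and the second from -0.56 to -0.21 after base 58725969. Untreated replicate 7 fell by 0.55 after base 54106535, at 3.70 standard errors. The split kept fell at that base in 7 libraries (5 rising, 2 falling) and at base 21026845 in 4 (2 rising, 2 falling). The step in Sx replicate 3 was lost with genes of at least log2 CPM 1 or of at least 4 in place of 2.

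Surgery was compared with no treatment by averaging the Sx and SxRT coefficients within 1 fit of all libraries. Of 535 members 34 were higher (6.36%) and 49 lower (9.16%) in surgical tumours, by edgeR's quasi-likelihood test with Benjamini-Hochberg adjustment. Over all genes tested 6.37% were higher and 10.4% lower, so the members' shares were near the background. The median difference was -0.05 over members and -0.02 over all genes. The split changed with the tool and the samples: voom with quality weights gave 51 higher and 29 lower, the chromosome 17 score as a covariate 27 and 61, and the compared groups alone 35 and 35. In the same fits 9.79%, 6.04% and 7.81% of all genes were higher and 7.96%, 10.3% and 11.1% lower. Within names numbered 11 to 16 no member was called, and within 17 to 22 only 2 higher and none lower. Over all genes 0% were called within 11 to 16, and 0.190% higher and 0.174% lower within 17 to 22. Every dog with an S name and only 1 with an N name had surgery, so the letter and surgery cannot be told apart. The share of even values among low counts, a library measure, had a median of 91.4% in untreated, 86.6% in Sx and 86.7% in SxRT tumours. With it as a covariate 12 were higher and 13 lower, and with the first principal component 3 and 6. Calls over all genes fell as well, to 1.42% higher and 2.58% lower with the share of even values. With the first principal component they were 0.822% and 0.735%.

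The largest rise among called members of at least log2 CPM 2 was that of ENSCAFG00000007200 (chr17:36863659-36909318). Its log2 CPM ran from 5.29 through a median of 6.15 to 8.15 in untreated and from 5.22 through 7.40 to 9.31 in 22 surgical tumours. The ranges overlapped, and the untreated median was exceeded in 18 of the 22. The log2 difference was 1.47 (SE 0.24, edgeR adjusted p = 7.44e-05), and it remained called in each of 62 fits that left out 1 library. The next was ENSCAFG00000030832, with a log2 difference of 1.34 (SE 0.45, adjusted p = 0.0285) and the untreated median exceeded in 12 of the 22. Its call was lost without any 1 of Sx replicate 5, Sx replicate 13, SxRT replicate 5 and SxRT replicate 7 (adjusted p of 0.0557 to 0.0945), in voom (log2 difference 0.67) and with the score added (0.66).

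The largest fall among called members of at least log2 CPM 2 was that of ENSCAFG00000003240 (chr17:922276-1057585). It ran from no count through 3.01 to 7.42 in untreated, and from no count through 0.31 to 5.45 in surgical tumours, where the untreated median was exceeded in 2 of 22. The log2 difference was -3.38 (SE 0.69, edgeR adjusted p = 0.00189), called in all 62 fits without 1 library. ENSCAFG00000031753 (chr17:37702886-37703458) had a log2 difference of -2.23 (SE 0.66, adjusted p = 0.0303). Its highest value, 10.92, was in untreated replicate 12, while the medians were 3.61 in untreated and 2.96 in surgical tumours. Without untreated replicate 12 the difference was -1.22 (adjusted p = 0.151), and without untreated replicate 3 -1.87 (0.0743).

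Steroid tumours and the SxRT and Sx groups were also compared, while RT alone and anti-epileptic alone were not. Against untreated tumours, 1 member was higher in steroid tumours and none lower in edgeR. Over all genes edgeR called 0.256% higher and 0% lower. An unadjusted edgeR p under 0.05 was found for 53 of 535 members. Such counts were not taken over all genes in this comparison, nor for SxRT against Sx, sex and neuter status. These unadjusted member counts therefore have no background. Voom with quality weights called 20 members higher and 1 lower, and 4.54% of all genes higher and 0.631% lower. The member called by edgeR was ENSCAFG00000011046 (chr17:58168375-58189062), with a log2 difference of 1.13 (SE 0.27, edgeR adjusted p = 0.0255). The 7 steroid values were 7.05, 7.20, 7.86, 7.00, 10.18, 7.33 and 7.44, against 6.06 through 6.98 to 7.70 in untreated tumours. The value of 10.18 is that of steroid replicate 5, and without it the difference was 0.17 (adjusted p = 0.916). Between SxRT and Sx no member was called by edgeR, DESeq2 or voom, and 23 had an unadjusted edgeR p under 0.05. Over all genes edgeR called 0.0109% higher and 0% lower, DESeq2 0.109% and 0.114%, and voom 0% and 0%.

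Sex and neuter status gave few calls as well. No member was called between female and male dogs in edgeR, where 43 had an unadjusted p under 0.05. DESeq2 called 1 higher in females and voom none. Over all genes edgeR called 0.0490% higher and 0% lower, DESeq2 0.0490% and 0.0109%, and voom 0.0272% and 0.00544%. Against neutered dogs edgeR called 1 member higher in the 7 intact dogs and none lower, with 39 at an unadjusted p under 0.05. Over all genes edgeR called 0.0435% higher and 0% lower. The member called was ENSCAFG00000042756, a low gene outside the naming rule. It had counts in 3 of 7 intact and 13 of 55 neutered dogs, of up to 166 and 51. Its log2 difference was 5.36 (SE 1.22, edgeR adjusted p = 0.0193), and the call was lost without any 1 of untreated replicate 9, Sx replicate 9 and SxRT replicate 4.

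Whether following differed between surgical and untreated tumours was asked by an interaction of the score with surgery. None of 403 members tested in those groups was called by edgeR (0% of all 13702 genes), with a smallest adjusted p of 0.584. An unadjusted p under 0.05 was found for 15 members in edgeR and for 13 in limma-trend, which also called none. In edgeR it was found for 709 of all 13702 genes. The median difference in slope was 0.04. The fit does not show that the slopes were alike.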

How the data were processed

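Bulk RNA of 62 tumours was analysed from raw counts per gene that the authors deposited. Per the file headers, reads were counted with featureCounts 2.0.4 over Ensembl 100 exons of the CanFam3.1 build. Strand was ignored, only primary alignments entered, and each read of a pair was counted; per the submitters' processing notes STAR, DESeq2 and canFam3 were used (versions not given in the sources used here). The header also gives exon lengths, from which RPKM was computed; a count of 2 thus often stands for 1 fragment (79.3% to 95.3% of counts up to 20 were even). The name table at hand (UU_Cfam_GSD_1.0) matched 0 identifiers, so marker lists were not used. P-values measure the spread between these libraries.

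Genes were filtered by filterByExpr by treatment group (18370 left), scaled by TMM and fitted by quasi-likelihood in edgeR 4.0.16 (R 4.3.3), with treatment group, sex and neuter status as covariates, in 1 fit of all libraries. Log2 CPM used a prior count of 2. Standard errors came from the working weights of the fit, and intervals are 95%. P-values were adjusted over all genes at 0.05. The score, slopes, steps and blocks are defined in the text. Named genes came from the 358 scored members: in each block those with the largest and smallest slope over its error, the 2 with the largest spread left, the 2 of highest RPKM, and per contrast the 2 called members of largest change in either direction. Alternatives used limma 3.58.1 (trend or voom) and DESeq2 1.42.0, other filters, scalings, covariates and libraries. The slope fit and the surgery fit were tested on simulated counts, and the search for steps was not. Members, lists and tests were chosen with earlier results of these data known.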

Additional observations from a re-analysis of the deposited data

Results flagged for a closer look

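In the groups of 4 to 10 libraries, 58 sets of values (the score, the 7 block means and the log2 CPM of the named members) were tested for a library far from the others. Chance would flag about 1 in 20 separate sets chosen beforehand, and 5 were found. The named members were chosen from these same values, and the score and block means share members, so that rate does not apply strictly. ENSCAFG00000007875 was at 8.57 in steroid replicate 2, with the nearest steroid tumour at 7.37. ENSCAFG00000011046 was at 10.18 in steroid replicate 5, with the nearest at 7.86. It was named through a steroid call that was lost without that library. ENSCAFG00000049453 was at 4.63 in SxRT replicate 2, with the nearest at 1.42. ENSCAFG00000006467 was at 4.87 in the same library, with the nearest at 1.70. ENSCAFG00000004676 had no count in SxRT replicate 7 (log2 CPM -1.16), where the nearest SxRT tumour was at 1.86.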

How the results depend on the processing

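The count of followers lay between 136 and 200 under limma-trend, DESeq2, other scalings, filters, scores and covariates, and between 117 and 151 when limma-trend left out each library in turn. Of genes on other chromosomes, 0.185% were called as following in limma-trend, 1.30% in DESeq2, 1.56% without covariates and 1.64% without the filter. Without 1 library that share ran from 0.0899% to 0.242%. It was 66 above the gap in the score, 0 below it, 5 in untreated tumours, 3 in names numbered 11 to 16, 14 in 17 to 22, 15 in N and 19 in S names; these fits hold fewer samples. Members called with a negative slope numbered 1 without centring, 1 with the share of even counts and 18 above the gap, and 0 in every fit without 1 library. Among 17795 genes on other chromosomes, 54 were so called without centring, 32 with the share of even counts and 1083 above the gap. Escaping members numbered 18 in limma-trend (15 to 22 without 1 library), 18 with the own block kept, 5 with the score from log2 CPM of at least 4, 3 without centring, 13 with the first component, 63 above and 22 below the gap, 17 in names 11 to 16, 27 in S names, and 23 without the 6 libraries past the widest gap on the first component. The matching share of genes on other chromosomes was not counted for these settings. Below the gap the slopes of ENSCAFG00000003263 (-2.12) and ENSCAFG00000007875 (-4.71) turned negative. The cause was not tested.

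For surgery, the share of even counts gave 12 higher and 13 lower, the first component 3 and 6, names 11 to 16 0 and 0, names 17 to 22 2 and 0, and voom 29 lower; without 1 library the counts ran from 27 to 41 higher and from 39 to 58 lower. For steroid, members higher numbered 6 without the filter, 2 with the score added, 2 in DESeq2 (1 lower), 20 in voom (1 lower) and 0 to 4 without 1 library. Of all genes, 0.736% were higher without the filter, 0.278% with the score added, 0.452% in DESeq2 and 4.54% in voom. DESeq2 called 0.142% of all genes lower and voom 0.631%. For sex, 5 were higher and 3 lower without the filter, 1 was higher in DESeq2, and 0 to 1 without 1 library. The shares over all genes were 0.639% higher and 0.231% lower without the filter, and 0.0490% higher in DESeq2. For neuter status, 2 were higher without the filter, 3 with the score added, 0 in DESeq2 and voom, and 0 to 2 without 1 library. Over all genes, 0.190% were higher without the filter, 0.136% with the score added, 0.0218% in DESeq2 and 0.0435% in voom. For SxRT against Sx the member counts stayed at 0 in each of these settings. Steps numbered 0 with genes of at least log2 CPM 1 or 4 or a size of at least 0.7. In the same settings, in that order, 5.53%, 4.12% and 1.1% of pairs of a library and another autosome had a step.

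No paired analysis was possible because the replicate numbers follow accession order and no label ties tumours of different groups. Among members under log2 CPM 2, slopes were called for 10 of 177; the part of depth was not tested.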
